A study of Mus musculus with 9 samples.

Results

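The transcripts of the C-type lectin receptors, the sialic acid-binding Siglec receptors and the CD300 receptors were measured in mouse bone marrow-derived macrophages that had been treated with WGFT17 or JHU083 or left as Control. A gene belonged to these families when its symbol began with Clec and a digit, with Siglec or with Cd300, or was Cd22 or Cd33. The rule found 49 genes among the 28998 in the deposited table: 29 C-type lectins, 8 Siglecs and 12 CD300 genes. Of these, 27 genes had a mean of at least 1 FPKM, a fragment count scaled to transcript length and library size, over the libraries and were tested (13 C-type lectins, 5 Siglecs and 9 CD300 genes), and 22 genes had lower means and were not. Just inside that limit were Siglecf (mean 1.37 FPKM) and Siglece (2.12 FPKM), and just outside it were Siglecg (0.899 FPKM), Clec4b1 (0.807 FPKM) and Clec2i (0.646 FPKM).

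The cells were wild-type C57 mouse bone marrow monocytes grown for 7 days with GM-CSF, although the labels also call them an adherent cell line. Both drugs were given for 36 h, and RNA was sequenced from 3 libraries of WGFT17, 3 of JHU083 and 3 of Control. JHU083 is known as a prodrug of the glutamine antagonist DON, while WGFT17 is named in the labels by its code only. The labels give no dose for either drug, and no vehicle or time for Control, so it is not known whether the doses of the 2 drugs match. Whether the replicates of a group are different mice or cultures is not given either, so the p-values speak of the variation among these 9 libraries, which could be technical.

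Macrophages read sugars, lipids and sialic acid on microbes and on their own tissue through these families. Activating receptors such as Mincle, Dectin-2 and several CD300 proteins pair with the adaptors FcRγ (gene Fcer1g) or DAP12 (gene Tyrobp), whose ITAM motifs recruit the kinase SYK and, further on, CARD9. Inhibitory receptors carry ITIM motifs that recruit phosphatases such as SHP-1 (gene Ptpn6) and hold that signalling back. Most CD33-related Siglecs belong to the inhibitory kind, and the receptors CD300A and CD300LF do so too and bind phospholipids exposed on dying cells.

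Most of the 49 genes lie in clusters: 23 are on chromosome 6, 13 on chromosome 11 and 7 on chromosome 7, and 6 are on 6 further chromosomes. Estimated counts per library summed to between 56624220 and 69112134, and 21556 to 22424 genes were above 0. The 10 macrophage markers were all present, with sums of 2994 to 3202 FPKM in WGFT17, 3556 to 3969 FPKM in JHU083 and 3697 to 3928 FPKM in Control. In WGFT17 against Control 3 of them were called higher and 4 lower (C1qa, C1qb, C1qc and Csf1r), and in JHU083 against Control 1 was higher and 3 lower. Among all genes tested, 28.0% were called higher and 30.0% lower in WGFT17 against Control, and 11.5% and 12.5% in JHU083 against Control. C1qb, for instance, averaged 638 FPKM in WGFT17, 1110 FPKM in JHU083 and 1102 FPKM in Control, while Adgre1 (F4/80) was at 241 to 268 FPKM in WGFT17, 244 to 271 FPKM in JHU083 and 223 to 229.9 FPKM in Control. JHU083 libraries were more spread than those of the other groups. JHU083 replicates 1 and 2 differed 2-fold or more at 216 genes, against 144 to 176 genes for WGFT17 pairs and 76 to 88 genes for Control pairs. JHU083 replicate 3 was farther off still, at 284 genes from replicate 1 and 373 genes from replicate 2. Results for JHU083 are therefore also given without JHU083 replicate 3 where it matters. Transcripts of other cell types also differed between groups: 10 stromal markers summed to 227 to 238 FPKM in WGFT17, 873 to 1043 FPKM in JHU083 and 1349 to 1447 FPKM in Control. In these bulk libraries, fewer cells of a type and less RNA per cell cannot be told apart.

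The 3 families differed in which group had the highest summed level. The C-type lectins summed to 537.5, 570.3 and 496.0 FPKM in WGFT17 libraries, to 450.2, 495.0 and 485.6 FPKM in JHU083 libraries and to 415.9, 413.0 and 469.6 FPKM in Control libraries. WGFT17 lay above the other groups, while JHU083 and Control overlapped. The CD300 genes summed to 501.7, 504.1 and 498.0 FPKM in WGFT17 libraries, to 679.9, 730.1 and 580.6 FPKM in JHU083 libraries and to 482.9, 469.0 and 498.1 FPKM in Control libraries. Here JHU083 was above both other groups in all 3 libraries, and WGFT17 overlapped Control. The Siglecs summed to 50.99, 50.75 and 49.56 FPKM in WGFT17 libraries, to 39.12, 37.59 and 38.76 FPKM in JHU083 libraries and to 39.18, 35.64 and 35.77 FPKM in Control libraries, so that WGFT17 alone was set apart. As ratios of group means, WGFT17 over Control was 1.24 for C-type lectins, 1.04 for CD300 genes and 1.37 for Siglecs, and JHU083 over Control was 1.10, 1.37 and 1.04 for the same families. FPKM as deposited ran higher with both drugs: on log2(FPKM + 1) the median change of all tested genes was 0.095 in WGFT17 and 0.079 in JHU083 against Control. In the fit used for single genes below, these medians were 0.0044 and 0.0037. The smallest log2 ratios of the sums were of similar size: 0.053 for CD300 genes in WGFT17, and 0.062 for Siglecs and 0.14 for C-type lectins in JHU083. These sums were not tested, since each family's sum rests on a few abundant genes.

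**Figure D1:**
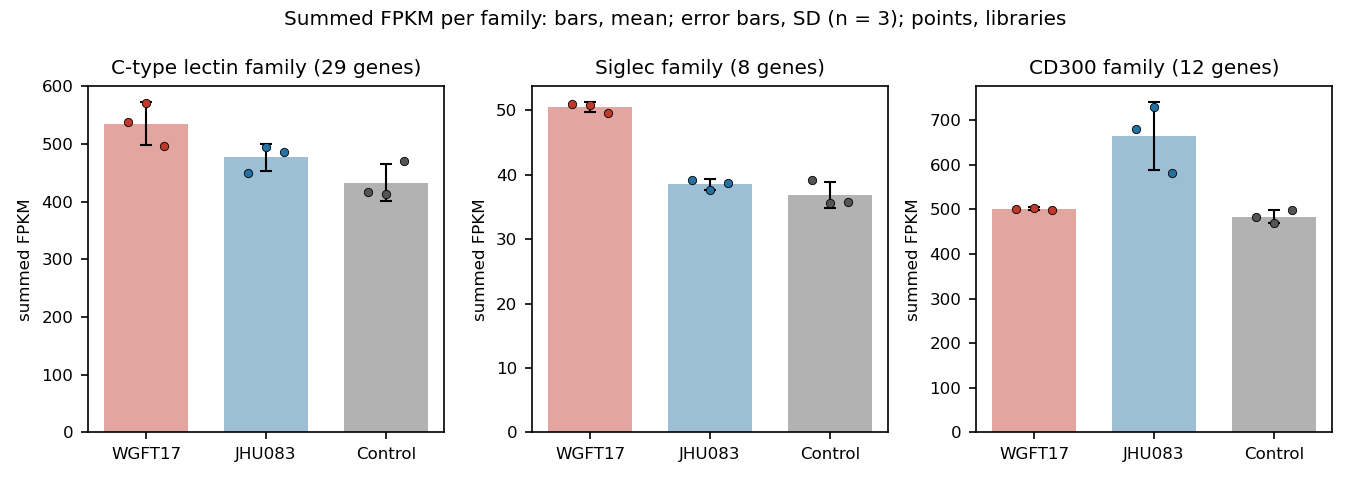
Summed FPKM of each family (y axis, linear from 0) in WGFT17, JHU083 and Control libraries, with bars for group means, error bars for SD (n = 3) and points for libraries. WGFT17 was highest for C-type lectins (mean 534.6 FPKM) and Siglecs (50.43 FPKM), and JHU083 for CD300 genes (663.6 FPKM).

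The sums hide opposite movements of single genes. Siglec1 alone made up 71.7% of the Siglec sum in WGFT17, 44.8% in JHU083 and 40.8% in Control. Clec4d made up 48.2% of the C-type lectin sum in WGFT17, 37.7% in JHU083 and 36.5% in Control. In the CD300 family the leading genes were Cd300c2, with 28.1% of the sum in WGFT17, 21.6% in JHU083 and 28.3% in Control, and Cd300ld3, with 21.0%, 28.2% and 23.1% in the same order of groups. Cd300a made up 12.2% of the CD300 sum in WGFT17, 5.55% in JHU083 and 6.33% in Control.

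Each gene was tested with edgeR's quasi-likelihood test on the estimated counts of all 9 libraries, with Benjamini-Hochberg adjustment over the 11798 genes tested and a threshold of 0.05, and log2 changes below come from that fit. In WGFT17 against Control, 8 of the 27 receptor genes rose and 14 fell, which is 29.6% and 51.9% of them, while 28.0% of all genes tested rose, 30.0% fell and 58.0% in all were called. The share that rose was thus close to that of all genes and the share that fell was above it. In JHU083 against Control, 6 genes rose and 2 fell (22.2% and 7.41%), against 11.5% and 12.5% of all genes, with 24.0% called in all. Without JHU083 replicate 3 those counts were 9 and 4, against 15.7% and 15.9% of all genes. In WGFT17 against JHU083, 6 genes were higher and 13 lower (22.2% and 48.1%), against 20.4% and 24.4% of all genes, with 44.7% called in all, and both receptor counts were the same without JHU083 replicate 3, when 22.4% of all genes were higher and 26.0% lower. Over the 27 receptor genes the median of the log2 changes was -0.27 in WGFT17 against Control, 0.093 in JHU083 against Control and -0.27 in WGFT17 against JHU083, while the medians of all genes were 0.0044, 0.0037 and 0.0062. Both comparisons with Control use the same Control libraries and are not independent. The split of calls over all genes depended on scaling and test: the share of called genes that were higher in JHU083 than in Control was 47.7% with TMM scaling, 44.4% with median-ratio scaling, 58.7% with library totals alone and 71.6% with limma on log2(FPKM + 1), which also changes the test and its input. For WGFT17 against Control it was 48.3% with TMM, 48.4% with median-ratio scaling, 50.6% with library totals and 60.9% with limma.

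**Figure D2:**
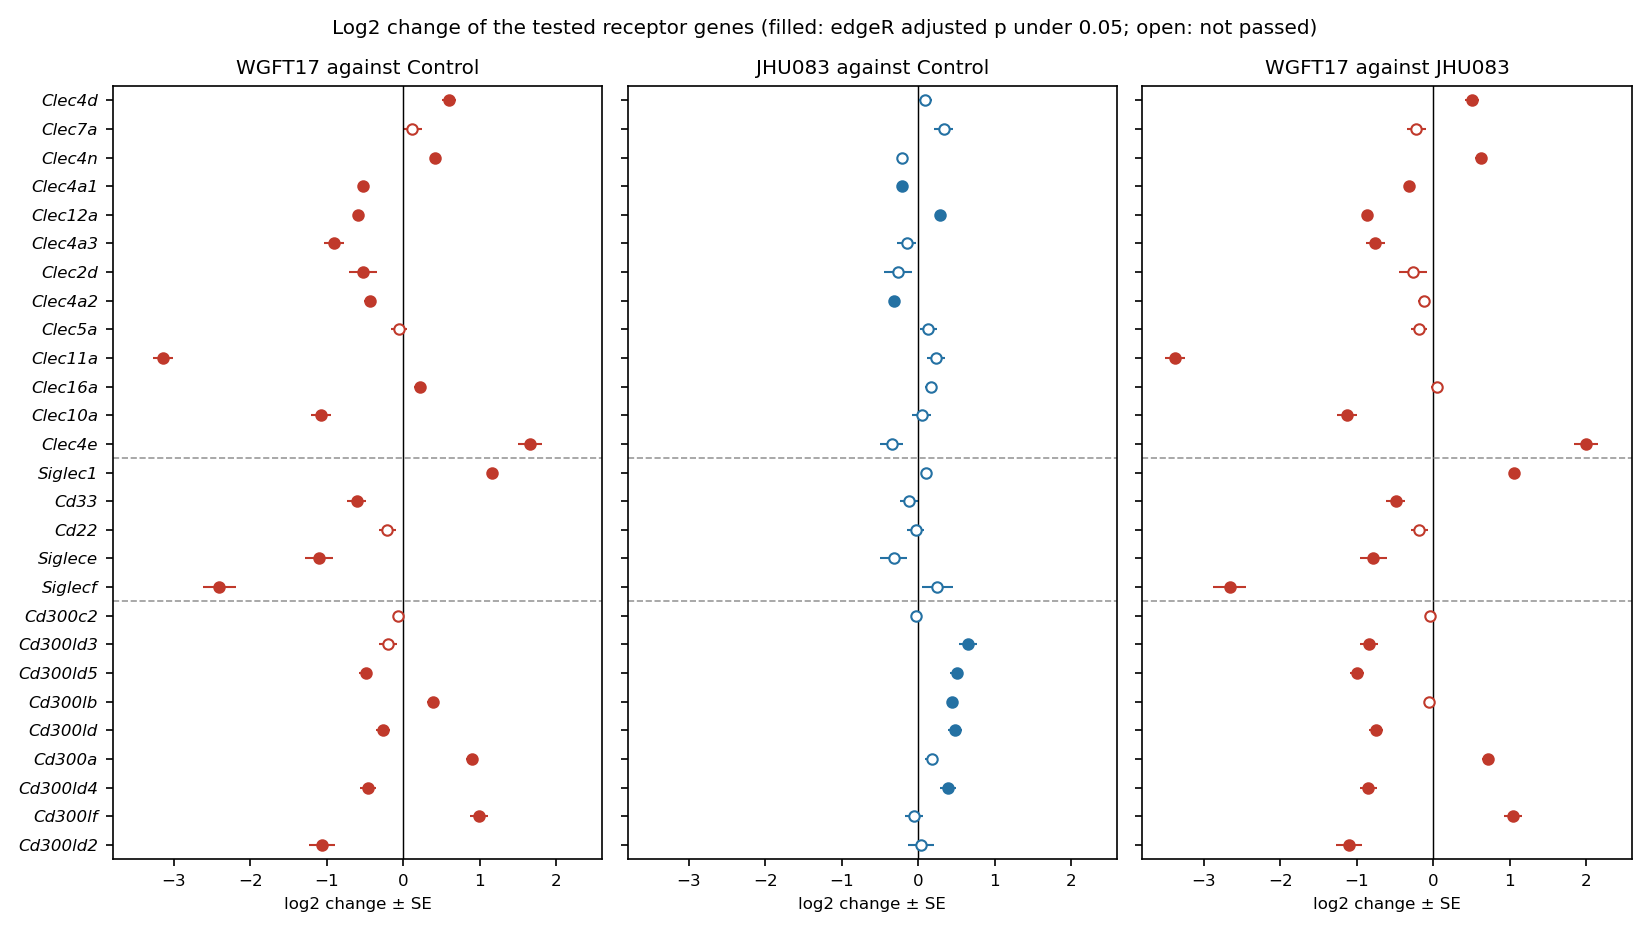
Log2 change ± SE (x axis) of the 27 tested genes (y axis) in WGFT17 against Control, JHU083 against Control and WGFT17 against JHU083, with filled points for an edgeR adjusted p under 0.05. In WGFT17 against Control, Clec4e (1.66) and Siglec1 (1.16) lie farthest to the right and Clec11a (-3.14) and Siglecf (-2.41) farthest to the left, while no gene reaches a 2-fold change in JHU083 against Control.

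Within the C-type lectins, 4 of the 13 tested genes rose and 7 fell in WGFT17 against Control, and 1 rose and 2 fell in JHU083 against Control (2 and 4 without JHU083 replicate 3). Within the Siglecs, 1 of 5 rose and 3 fell in WGFT17 against Control. None of the 5 passed in JHU083 against Control by edgeR: 0 had an unadjusted p under 0.05, DESeq2 called 0 and limma on log2(FPKM + 1) called 1, which was higher. Within the CD300 genes, 3 of 9 rose and 4 fell in WGFT17 against Control, while 5 rose in JHU083 against Control. No CD300 gene was lower in JHU083 by edgeR, and 0 were lower at an unadjusted p under 0.05, by DESeq2 or by limma. In WGFT17 against Control 30.8% of C-type lectins rose and 53.8% fell, 20% and 60% of Siglecs, and 33.3% and 44.4% of CD300 genes. All genes had 28.0% and 30.0%. In JHU083 against Control the shares were 7.69% and 15.4%, 0% and 0%, and 55.6% and 0% for the same families. All genes had 11.5% and 12.5% there. The families' JHU083 calls were not tested against each other, and 4 of the CD300 genes share sequence. A change of 2-fold or more was reached by 2 genes that rose and 5 that fell in WGFT17 against Control, by 3 higher and 4 lower genes in WGFT17 against JHU083, and by 0 in JHU083 against Control with edgeR, also at an unadjusted p under 0.05, with DESeq2 and with limma. These are 7.41% and 18.5% of the 27 genes in WGFT17 against Control, where 2.14% of all genes rose and 10.8% fell by as much, and 11.1% and 14.8% in WGFT17 against JHU083, where 1.40% were higher and 7.98% lower. In JHU083 against Control 0.271% of all genes rose and 1.18% fell by as much. DESeq2 gave the same counts for the receptor genes, while limma on log2(FPKM + 1), which understates changes of low genes, gave 2 that rose and 1 that fell in WGFT17 against Control and 2 higher and 2 lower in WGFT17 against JHU083.

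**Figure D3:**
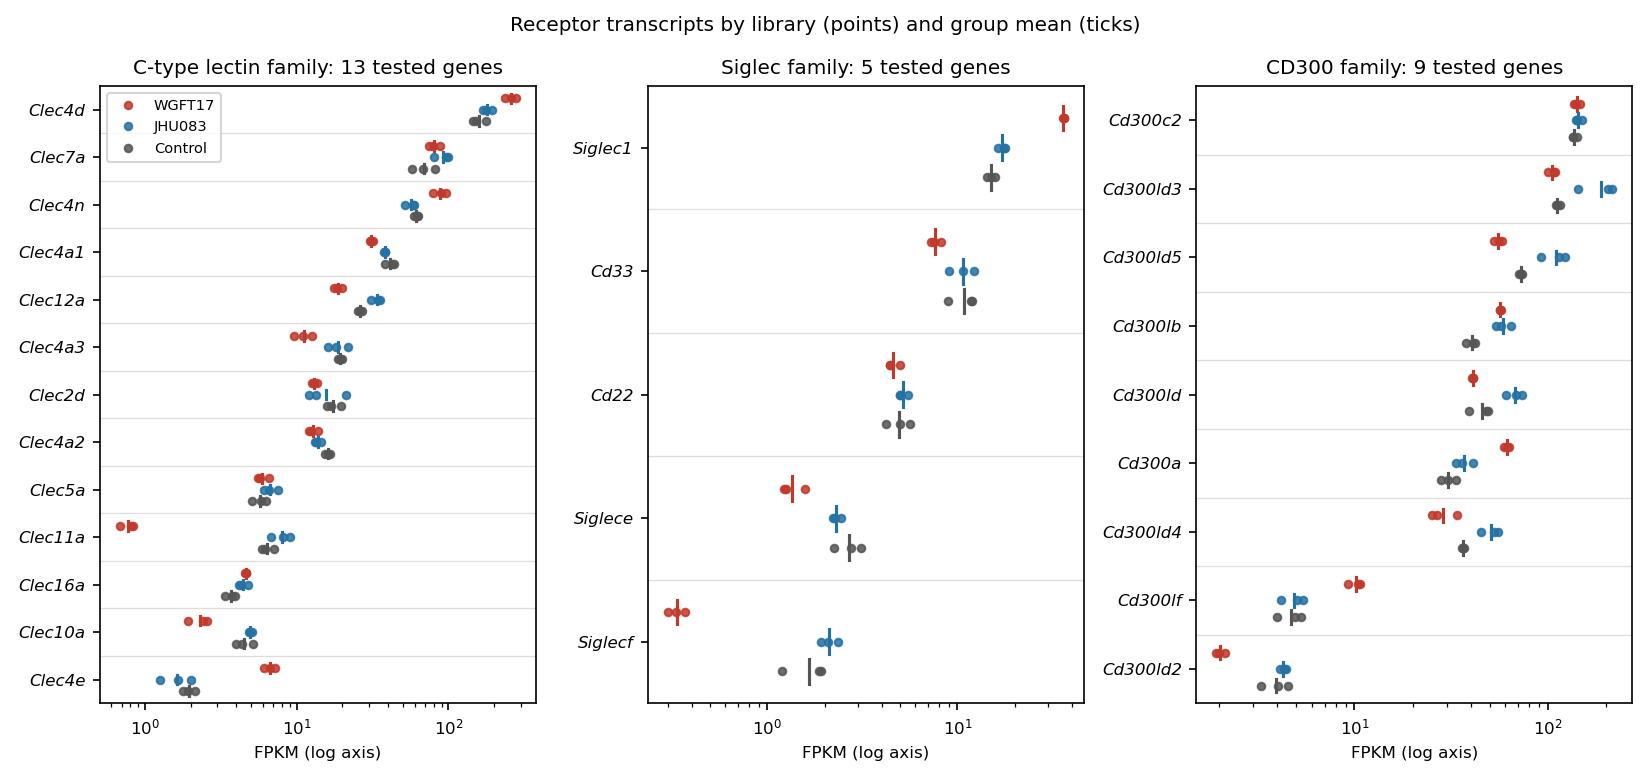
FPKM of each of the 27 tested genes (x axis, log scale) in every library, drawn as points with a tick for the group mean, by family. The points of WGFT17 lie to the right of the other groups for genes such as Clec4e and Siglec1. They lie to the left for genes such as Clec11a and Siglecf. How many of all genes were separated in this way is not given here.

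The Dectin-2 cluster on chromosome 6 carries the genes of Mincle (Clec4e), which binds mycobacterial cord factor, of its close partner Clec4d and of Dectin-2 (Clec4n), which binds fungal mannans. All 3 receptors signal through FcRγ, SYK and CARD9, and the transcripts of all 3 rose with WGFT17. The windows around the starts of Clec4e and Clec4d, the neighbours with the largest rise in the cluster, are shown first, from 250 bases before to 50 bases after the start, 5′ to 3′ on the gene's strand, from RefSeq on GRCm38.p6. The Clec4e window is chr6:123289822-123290121, minus strand, and the Clec4d window is chr6:123261857-123262156, plus strand. Capitals mark matches on either strand to the C/EBP motif TTGCNNAA and the PU.1 motif GAGGAA, motifs of factors that act in myeloid cells.
Clec4e: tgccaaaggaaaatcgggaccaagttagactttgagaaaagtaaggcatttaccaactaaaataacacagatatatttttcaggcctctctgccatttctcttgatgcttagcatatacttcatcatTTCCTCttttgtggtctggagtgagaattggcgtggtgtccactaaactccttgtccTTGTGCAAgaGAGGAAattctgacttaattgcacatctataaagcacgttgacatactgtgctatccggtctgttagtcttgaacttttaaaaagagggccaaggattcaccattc
Clec4d: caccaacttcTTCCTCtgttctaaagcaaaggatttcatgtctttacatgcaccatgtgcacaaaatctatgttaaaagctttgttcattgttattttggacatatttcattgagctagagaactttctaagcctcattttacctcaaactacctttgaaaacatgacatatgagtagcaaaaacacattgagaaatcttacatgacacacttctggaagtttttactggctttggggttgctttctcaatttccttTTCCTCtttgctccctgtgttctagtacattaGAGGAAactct
Counting from the start of transcription, with negative positions before it, the Clec4e window holds 1 C/EBP match, at -66, and 2 PU.1 matches. The Clec4d window holds 3 PU.1 matches and no C/EBP match. It also matches an interferon regulatory factor motif, read as GAAA, any pair of bases and GAAA, at the start itself, on the opposite strand and overlapping a PU.1 match. Such matches describe letters and not bound sites: the C/EBP motif was in 10.8% of all 32851 RefSeq windows and in 5 of the 25 windows of the tested receptor genes, the PU.1 motif in 28.3% and in 20 of 25, and the interferon motif in 3.44% and in 3 of 25. The 25 windows come from 23 genes and are not independent. Clec4a3 and Clec7a have overlapping windows, and those of Cd300ld3, Cd300ld4 and Cd300ld5 are 95.0% to 100% identical. The RefSeq windows were not limited to genes expressed here.

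Clec4e lies at chr6:123281789-123289870, minus strand, in GRCm38 coordinates, as all positions here. Clec4e had 7.13, 6.10 and 6.61 FPKM in WGFT17 libraries, 1.64, 1.25 and 2.01 FPKM in JHU083 libraries and 2.12, 1.92 and 1.78 FPKM in Control libraries. Every WGFT17 library was above every other library, while JHU083 and Control overlapped. Clec4e was 3.15-fold higher (log2 change 1.66 ± 0.15 SE, adjusted p = 3.38e-06) in WGFT17 against Control. Against JHU083 it was 4.00-fold higher (log2 change 2.00 ± 0.15 SE, adjusted p = 1.01e-06). The difference of JHU083 from Control did not pass (log2 change -0.35, 95% interval -0.68 to -0.012, adjusted p = 0.12), but without JHU083 replicate 3 it passed as lower (log2 change -0.53, adjusted p = 0.0101). Estimated counts of Clec4e ran from 429 to 2573 per library.

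Clec4d lies at chr6:123262111-123275265, plus strand. Clec4d had 259, 277 and 238 FPKM in WGFT17 libraries, 169.9, 192 and 177 FPKM in JHU083 libraries and 151, 145 and 178 FPKM in Control libraries. It was the most abundant gene of all 3 families by group mean in WGFT17 and Control, and WGFT17 again stood above the other groups, which overlapped. Clec4d was 1.51-fold higher (log2 change 0.60 ± 0.089 SE, adjusted p = 0.00016) in WGFT17 against Control and 1.42-fold higher (log2 change 0.51 ± 0.089 SE, adjusted p = 0.000704) in WGFT17 against JHU083. Clec4d did not pass in JHU083 against Control (log2 change 0.093, 95% interval -0.10 to 0.29, adjusted p = 0.472). Clec4n lies at chr6:123229843-123247021, plus strand. Clec4n had 89.2, 96.5 and 79.1 FPKM in WGFT17 libraries, 59.2, 58.7 and 52.0 FPKM in JHU083 libraries and 58.9, 63.0 and 61.8 FPKM in Control libraries. Dectin-2 transcripts were thus highest in WGFT17, and JHU083 overlapped Control at its upper end. The rise was 1.34-fold in WGFT17 against Control (log2 change 0.42, adjusted p = 0.000692) and 1.54-fold in WGFT17 against JHU083 (log2 change 0.63, adjusted p = 4.43e-05). JHU083 against Control did not pass (log2 change -0.21, 95% interval -0.37 to -0.039, adjusted p = 0.072), though it did without WGFT17 replicate 3, which also enters that fit, at adjusted p = 0.041, and by DESeq2 at adjusted p = 0.0275. Clec4d and Clec4e are also expressed by neutrophils. The 10 neutrophil markers summed to 1.28 to 2.44 FPKM in WGFT17, 9.74 to 12 FPKM in JHU083 and 38.6 to 47.8 FPKM in Control, and the part of neutrophil RNA in these results was not tested.

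The tested genes at the other end of the same cluster fell with WGFT17. Clec4a2 encodes the inhibitory receptor DCIR, which carries an ITIM. Clec4a2 had 12.3, 13.7 and 12.1 FPKM in WGFT17 libraries, 13.3, 13.5 and 14.4 FPKM in JHU083 libraries and 15.5, 16.1 and 16.4 FPKM in Control libraries. Control lay above both drugs, which overlapped. Clec4a2 was 1.36-fold lower (log2 change -0.44 ± 0.068 SE, adjusted p = 0.000227) in WGFT17 against Control and 1.25-fold lower (log2 change -0.32 ± 0.068 SE, adjusted p = 0.00844) in JHU083 against Control, and the difference between the drugs did not pass (log2 change -0.12, 95% interval -0.27 to 0.027, adjusted p = 0.168). Clec4a1 had 30.4, 31.9 and 30.7 FPKM in WGFT17 libraries, 37.7, 38.3 and 38.2 FPKM in JHU083 libraries and 38.2, 43.4 and 42.2 FPKM in Control libraries. Its WGFT17 values were lowest and its JHU083 and Control values overlapped by a small margin. Clec4a1, a DCIR relative, was 1.44-fold lower (log2 change -0.52 ± 0.057 SE, adjusted p = 1.57e-05) in WGFT17 against Control. It was 1.16-fold lower (log2 change -0.21 ± 0.057 SE, adjusted p = 0.0229) in JHU083 against Control, a call lost without JHU083 replicate 1 or 2 or Control replicate 2 or 3 (adjusted p = 0.0501 to 0.0975) and in 4 other settings (0.0608 to 0.138).

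Clec4a3 had 12.7, 11 and 9.63 FPKM in WGFT17 libraries, 15.9, 18.1 and 21.7 FPKM in JHU083 libraries and 18.7, 19.3 and 20.0 FPKM in Control libraries. This further DCIR relative was lowest in WGFT17, while JHU083 enclosed the Control range. It was 1.88-fold lower (log2 change -0.91 ± 0.13 SE, adjusted p = 0.000102) in WGFT17 against Control and did not pass in JHU083 against Control (log2 change -0.15, 95% interval -0.43 to 0.13, adjusted p = 0.408). Read in gene order along the chromosome, Clec4a1, Clec4a3 and Clec4a2 were lower in WGFT17, and the next genes, Clec4n, Clec4d and Clec4e, were higher. Clec4b1, which lies next to Clec4a2, was under the limit for testing, with 0.27 to 0.48 FPKM in WGFT17, 0.74 to 1.27 FPKM in JHU083 and 0.81 to 1.31 FPKM in Control. The Clec4a genes are also known in dendritic cells, and 10 dendritic cell markers summed to 32.6 to 34.8 FPKM in WGFT17, 58.8 to 75.3 FPKM in JHU083 and 61.5 to 76.5 FPKM in Control. Of the 3 tested, Itgax and H2-Ab1 were lower in WGFT17 than in Control (log2 change -2.34 ± 0.12, adjusted p = 2.93e-08 for Itgax and log2 change -1.32 ± 0.19, adjusted p = 0.000118 for H2-Ab1), while Irf8 did not pass against Control (log2 change 0.14 ± 0.058, adjusted p = 0.0582) and was higher than in JHU083 (log2 change 0.16 ± 0.058, adjusted p = 0.0399). Itgax, which macrophages also express, was at 7.48 to 8.71 FPKM in WGFT17, 33.3 to 41.8 FPKM in JHU083 and 31.6 to 42.5 FPKM in Control. Of the markers under the limit for testing, Flt3 and Xcr1 stayed at or under 0.04 FPKM and 0.13 FPKM in every library. Zbtb46 averaged 0.19 FPKM in WGFT17, 0.20 FPKM in JHU083 and 0.21 FPKM in Control, and Batf3 0.68, 0.75 and 0.69 FPKM in that order. Ccr7 went the other way from the sum, with 0.69, 0.57 and 0.073 FPKM in the same order. Cd209a (0.02, 0.38 and 0.23 FPKM) and Ciita (0.04, 0.23 and 0.20 FPKM) were lowest in WGFT17. The part of these markers in the Clec4a results was not tested.

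**Figure D4:**
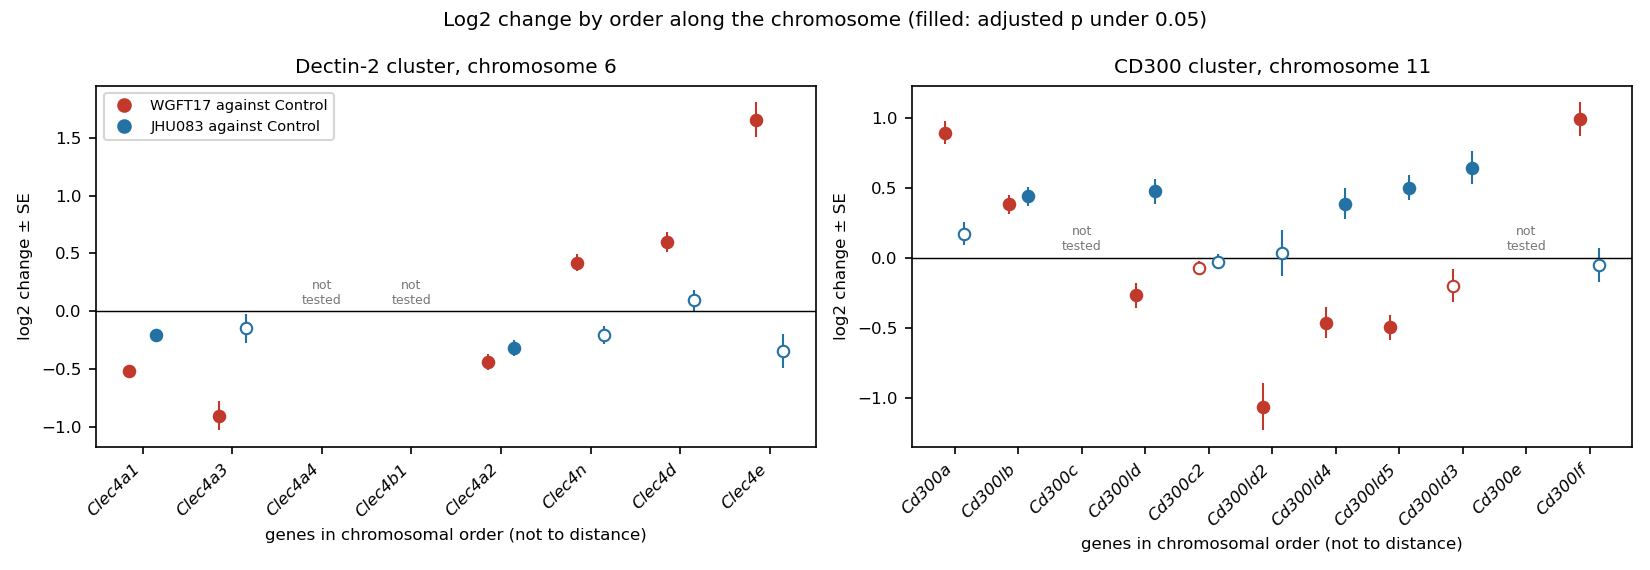
Log2 change ± SE (y axis) of the tested genes of the Dectin-2 cluster on chromosome 6 and of the CD300 cluster on chromosome 11, in chromosomal order (x axis, not to distance), with filled points for an adjusted p under 0.05. In the Dectin-2 cluster WGFT17 against Control changes sign between Clec4a2 (-0.44) and Clec4n (0.42), and in the CD300 cluster Cd300a and Cd300lf at the ends rose with WGFT17 (0.89 and 0.99) while Cd300ld5, Cd300ld4 and Cd300ld2 between them fell.

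In the Dectin-1 cluster, also on chromosome 6, the tested genes were Clec7a and Clec12a. Clec7a encodes Dectin-1, the receptor for fungal β-glucan, which carries its own SYK-recruiting motif. Clec7a had 78.5, 87.9 and 74.2 FPKM in WGFT17 libraries, 80.8, 99.8 and 96.6 FPKM in JHU083 libraries and 67.4, 57.2 and 81.2 FPKM in Control libraries. All groups overlapped. Clec7a did not pass in WGFT17 against Control (log2 change 0.12, 95% interval -0.16 to 0.39, adjusted p = 0.45) or in JHU083 against Control (log2 change 0.34, 95% interval 0.059 to 0.61, adjusted p = 0.0753). The JHU083 change passed without JHU083 replicate 1 or Control replicate 3 (adjusted p = 0.0257 to 0.0433) and by DESeq2 and limma (0.0218 to 0.0333). Clec12a (chr6:129342691-129364416, plus strand) encodes an inhibitory ITIM receptor for uric acid crystals. Clec12a had 19.9, 17.5 and 18.5 FPKM in WGFT17 libraries, 31.1, 34.2 and 35.6 FPKM in JHU083 libraries and 25.1, 25.9 and 26.9 FPKM in Control libraries. The groups did not overlap, and their order was JHU083, then Control, then WGFT17. Clec12a was 1.5-fold lower (log2 change -0.59 ± 0.066 SE, adjusted p = 1.77e-05) in WGFT17 against Control and 1.21-fold higher (log2 change 0.28 ± 0.065 SE, adjusted p = 0.0122) in JHU083 against Control, a JHU083 rise that was at adjusted p = 0.0505 with no minimum on expression. WGFT17 against JHU083 gave the largest of its differences (log2 change -0.87, adjusted p = 9.4e-07).

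Among the remaining C-type lectins, Clec11a (chr7:44302687-44306902, minus strand) changed most. It encodes a secreted growth factor made by bone marrow stroma and not a pattern receptor. Its start window, chr7:44306910-44307209, minus strand (RefSeq, GRCm38.p6), is shown because this was the largest fall of any tested gene of these families. Capitals again mark the C/EBP and PU.1 motifs.
Clec11a: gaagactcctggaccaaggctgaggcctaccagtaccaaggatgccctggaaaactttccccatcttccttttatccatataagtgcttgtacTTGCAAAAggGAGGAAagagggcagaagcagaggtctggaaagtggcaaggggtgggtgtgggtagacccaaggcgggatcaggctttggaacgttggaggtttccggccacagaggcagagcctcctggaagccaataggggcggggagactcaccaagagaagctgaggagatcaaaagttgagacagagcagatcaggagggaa
The C/EBP match lies at -157 and the PU.1 match at -147 from the start, so a C/EBP match was held both by the gene that fell most and by Clec4e, which rose most. Clec11a had 0.68, 0.81 and 0.83 FPKM in WGFT17 libraries, 8.14, 8.99 and 6.75 FPKM in JHU083 libraries and 5.90, 7.03 and 6.15 FPKM in Control libraries. WGFT17 was far below both other groups, which overlapped. Clec11a was 8.84-fold lower (log2 change -3.14 ± 0.14 SE, adjusted p = 6.91e-09) in WGFT17 against Control and 10.4-fold lower (log2 change -3.37 ± 0.14 SE, adjusted p = 5.69e-09) in WGFT17 against JHU083. The difference between JHU083 and Control did not pass (log2 change 0.23, 95% interval -0.035 to 0.49, adjusted p = 0.186), except as higher without JHU083 replicate 3 (log2 change 0.33, adjusted p = 0.0443). With limma on log2(FPKM + 1) the WGFT17 log2 changes of Clec11a were -2.05 against Control and -2.33 against JHU083, both past the threshold. The stromal markers, whose sums are given above, were lower in WGFT17 for 8 of the 8 tested, as Clec11a was. In JHU083, 6 of the 8 were lower than in Control while Clec11a was not. Among all genes tested, 30.0% fell in WGFT17 against Control and 12.5% in JHU083 against Control. The part of stromal RNA in the Clec11a result was not tested.

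Clec10a had 2.40, 1.93 and 2.57 FPKM in WGFT17 libraries, 4.95, 4.86 and 5.04 FPKM in JHU083 libraries and 4.38, 5.15 and 3.95 FPKM in Control libraries. Clec10a encodes a receptor for galactose and N-acetylgalactosamine found on alternatively activated macrophages and dendritic cells. WGFT17 was lowest without overlap and the other groups overlapped. Clec10a was 2.11-fold lower (log2 change -1.08 ± 0.13 SE, adjusted p = 2.79e-05) in WGFT17 against Control and did not pass in JHU083 against Control (log2 change 0.048, 95% interval -0.23 to 0.32, adjusted p = 0.806). Its paralog Mgl2, with which it shares 4.08% of its 100-base transcript windows, was also lower in WGFT17 than in Control (log2 change -2.04 ± 0.22, adjusted p = 1.14e-05), a gene named after its values were seen. Of the dendritic cell markers named above, Itgax and H2-Ab1 were lower in WGFT17 than in Control and Irf8 was not, and their part was not tested.

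Clec2d had 12.9, 13.7 and 12.6 FPKM in WGFT17 libraries, 13.3, 12 and 21.2 FPKM in JHU083 libraries and 15.8, 16.7 and 19.6 FPKM in Control libraries. Clec2d encodes a ligand of natural killer cell receptors. WGFT17 was below Control, and JHU083 spanned both, with replicates 1 and 2 low and replicate 3 high. Clec2d was 1.44-fold lower (log2 change -0.52 ± 0.18 SE, adjusted p = 0.0296) in WGFT17 against Control, a call lost without any 1 of the WGFT17 libraries or without Control replicate 2 or 3 (adjusted p = 0.0525 to 0.112) and with no minimum or limma (0.0791 to 0.0994). The JHU083 libraries as a group did not pass against Control (log2 change -0.26, 95% interval -0.66 to 0.15, adjusted p = 0.328), but it passed as lower without JHU083 replicate 3 (log2 change -0.56, adjusted p = 0.00357). Clec5a had 6.53, 5.76 and 5.51 FPKM in WGFT17 libraries, 6.54, 6.05 and 7.47 FPKM in JHU083 libraries and 5.84, 6.24 and 5.06 FPKM in Control libraries. Clec5a, a DAP12-coupled receptor, overlapped between all groups and passed in no comparison, with log2 change -0.054, 95% interval -0.29 to 0.18, adjusted p = 0.685 in WGFT17 against Control and log2 change 0.13, 95% interval -0.10 to 0.37, adjusted p = 0.389 in JHU083 against Control. Clec16a had 4.59, 4.63 and 4.63 FPKM in WGFT17 libraries, 4.77, 4.27 and 4.18 FPKM in JHU083 libraries and 3.75, 3.34 and 3.93 FPKM in Control libraries. Clec16a, an intracellular protein of endosomes and mitophagy that is a lectin in name, was above Control with both drugs, which overlapped. It was 1.17-fold higher (log2 change 0.22 ± 0.077 SE, adjusted p = 0.0288) in WGFT17 against Control, a call lost without any 1 of the WGFT17 libraries or without Control replicate 1 or 2 (adjusted p = 0.0502 to 0.12). With JHU083 it did not pass (log2 change 0.17, 95% interval -0.0022 to 0.34, adjusted p = 0.136), although limma called it at adjusted p = 0.0365 to 0.0373.

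In the Siglec family, Siglec1 rose with WGFT17 while the 3 CD33-related genes tested (Cd33, Siglece and Siglecf) fell. Siglec1 (chr2:131069220-131086765, minus strand) encodes CD169, an adhesion receptor for sialic acid without an ITIM, known on resident macrophages and as an interferon-induced gene. Siglec1 had 36.2, 36.4 and 35.9 FPKM in WGFT17 libraries, 17.8, 17.5 and 16.3 FPKM in JHU083 libraries and 15.7, 15.1 and 14.3 FPKM in Control libraries. The groups did not overlap, with WGFT17 highest, then JHU083, then Control. Siglec1 was 2.23-fold higher (log2 change 1.16 ± 0.050 SE, adjusted p = 6.7e-09) in WGFT17 against Control and 2.08-fold higher (log2 change 1.06 ± 0.050 SE, adjusted p = 1.77e-08) in WGFT17 against JHU083. The small difference of JHU083 from Control did not pass (log2 change 0.10, 95% interval -0.0059 to 0.21, adjusted p = 0.152), but it did without JHU083 replicate 3 (adjusted p = 0.0379) and with library totals or limma (0.0234 to 0.0487). The 4 Kupffer cell markers, a list of another resident macrophage, summed to 223.8 to 274.5 FPKM in WGFT17, 124.4 to 135.4 FPKM in JHU083 and 92.4 to 117.9 FPKM in Control, and the 3 tested were all higher in WGFT17 than in Control. Among all genes tested, 28.0% rose in that comparison. Cd5l made up most of those sums, with means of 233.9 FPKM in WGFT17, 119.8 FPKM in JHU083 and 98.0 FPKM in Control. Timd4, the marker under the limit for testing, was lowest in WGFT17. It averaged 0.13 FPKM in WGFT17, 0.30 FPKM in JHU083 and 0.21 FPKM in Control. The relation of these markers to Siglec1 was not tested.

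The CD33-related Siglecs summed to 9.67 FPKM in WGFT17, 16.0 FPKM in JHU083 and 16.8 FPKM in Control. Cd33 had 8.18, 7.56 and 7.27 FPKM in WGFT17 libraries, 10.8, 9.00 and 12.2 FPKM in JHU083 libraries and 11.9, 11.8 and 8.95 FPKM in Control libraries. WGFT17 was lowest, and JHU083 overlapped Control. Cd33 was 1.53-fold lower (log2 change -0.61 ± 0.12 SE, adjusted p = 0.00135) in WGFT17 against Control and did not pass in JHU083 against Control (log2 change -0.12, 95% interval -0.39 to 0.15, adjusted p = 0.497). Siglece had 1.58, 1.23 and 1.25 FPKM in WGFT17 libraries, 2.45, 2.27 and 2.21 FPKM in JHU083 libraries and 2.74, 2.25 and 3.12 FPKM in Control libraries. Siglece encodes an inhibitory receptor of neutrophils and macrophages, and it too was lowest in WGFT17, with the other groups overlapping. It was 2.15-fold lower (log2 change -1.10 ± 0.18 SE, adjusted p = 0.000292) in WGFT17 against Control and did not pass in JHU083 against Control (log2 change -0.32, 95% interval -0.70 to 0.061, adjusted p = 0.2). The neutrophil markers given above were lower with both drugs, and their part was not tested.

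Siglecf had 0.30, 0.33 and 0.37 FPKM in WGFT17 libraries, 2.09, 2.35 and 1.92 FPKM in JHU083 libraries and 1.88, 1.19 and 1.92 FPKM in Control libraries. Siglecf (chr7:43351341-43359531, plus strand) marks eosinophils and alveolar macrophages, and its WGFT17 values were all under those of the other groups, which overlapped. It was 5.31-fold lower (log2 change -2.41 ± 0.22 SE, adjusted p = 2.97e-06) in WGFT17 against Control, 6.32-fold lower (log2 change -2.66 ± 0.22 SE, adjusted p = 1.79e-06) in WGFT17 against JHU083, and did not pass in JHU083 against Control (log2 change 0.25, 95% interval -0.19 to 0.69, adjusted p = 0.384). With limma on log2(FPKM + 1) the log2 changes were -0.99 against Control and -1.22 against JHU083, both past the threshold. These levels rest on 64 to 455 estimated counts per library. The 6 eosinophil markers in the table summed to 3.47 to 4.76 FPKM in WGFT17, 4.63 to 5.05 FPKM in JHU083 and 3.00 to 4.17 FPKM in Control. Of the 2 tested, Ccr3 was higher in WGFT17 than in Control (log2 change 0.76 ± 0.13, adjusted p = 0.000362) and Ear2 did not pass (log2 change -0.35 ± 0.34, adjusted p = 0.397). Prg2 was listed at 0 in every WGFT17 library, at 0.27 to 0.86 FPKM in JHU083 and at 0.28 to 0.54 FPKM in Control, while Epx, Ear6 and Il5ra were at or under 0.06 FPKM in every library. The part of eosinophil RNA in the Siglecf result was not tested. Cd22 had 4.43, 4.97 and 4.40 FPKM in WGFT17 libraries, 4.98, 5.53 and 4.97 FPKM in JHU083 libraries and 4.96, 4.19 and 5.65 FPKM in Control libraries. Cd22, the inhibitory Siglec of B cells, overlapped between all groups and did not pass in WGFT17 against Control (log2 change -0.21, 95% interval -0.45 to 0.031, adjusted p = 0.122) or JHU083 against Control (log2 change -0.031, 95% interval -0.27 to 0.21, adjusted p = 0.862). Without Control replicate 2 it passed in WGFT17 against Control at adjusted p = 0.0216. The B cell markers Ms4a1 and Pax5 were at or under 0.03 FPKM in every library. The 2 B cell markers tested were both lower in WGFT17 than in Control: Cd79b averaged 1.52 FPKM in WGFT17, 3.02 FPKM in JHU083 and 3.86 FPKM in Control (log2 change -1.45 ± 0.21, adjusted p = 0.000163), and Ebf1 averaged 0.69 FPKM in WGFT17, 1.46 FPKM in JHU083 and 1.57 FPKM in Control (log2 change -1.30 ± 0.13, adjusted p = 8.02e-06). The part of B cell RNA in the Cd22 levels was not tested.

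In the CD300 family, the genes of the inhibitory receptors CD300A and CD300LF rose with WGFT17. Cd300a lies at chr11:114890041-114904654, plus strand, the first of the CD300 cluster. Cd300a had 59.3, 61.6 and 63.0 FPKM in WGFT17 libraries, 36.0, 41.1 and 33.5 FPKM in JHU083 libraries and 28.1, 30.4 and 33.3 FPKM in Control libraries. The groups did not overlap, with WGFT17 highest and the lowest JHU083 library just above the highest Control library. Cd300a was 1.86-fold higher (log2 change 0.89 ± 0.081 SE, adjusted p = 3.16e-06) in WGFT17 against Control and 1.65-fold higher (log2 change 0.72 ± 0.081 SE, adjusted p = 2.32e-05) in WGFT17 against JHU083. JHU083 against Control did not pass (log2 change 0.17, 95% interval -0.0026 to 0.35, adjusted p = 0.137) except without JHU083 replicate 3 (adjusted p = 0.0378) and by limma (0.0401 to 0.041). Cd300lf had 9.31, 10.7 and 10.4 FPKM in WGFT17 libraries, 5.44, 4.15 and 5.02 FPKM in JHU083 libraries and 5.27, 4.94 and 3.96 FPKM in Control libraries. Cd300lf (chr11:115116214-115133992, minus strand), whose product also serves as the receptor of murine norovirus, was again highest in WGFT17, and JHU083 overlapped Control. It was 1.99-fold higher (log2 change 0.99 ± 0.12 SE, adjusted p = 3.12e-05) in WGFT17 against Control, 2.06-fold higher (log2 change 1.04 ± 0.12 SE, adjusted p = 2.67e-05) in WGFT17 against JHU083, and did not pass in JHU083 against Control (log2 change -0.050, 95% interval -0.31 to 0.21, adjusted p = 0.784). The gene Rab37 lies on the opposite strand across Cd300lf, at 0.11 to 0.22 FPKM over all libraries.

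The activating receptor genes differed among themselves. Cd300lb had 56.7, 57.1 and 56.4 FPKM in WGFT17 libraries, 54.1, 64.1 and 57.0 FPKM in JHU083 libraries and 42.0, 37.9 and 41.1 FPKM in Control libraries. Both drugs lay above Control and overlapped each other. Cd300lb, a DAP12-coupled receptor, was 1.30-fold higher (log2 change 0.38 ± 0.067 SE, adjusted p = 0.000542) in WGFT17 against Control and 1.36-fold higher (log2 change 0.44 ± 0.067 SE, adjusted p = 0.00182) in JHU083 against Control, and the difference between the drugs did not pass (log2 change -0.057, 95% interval -0.20 to 0.091, adjusted p = 0.526). It overlaps Gm11699 on the other strand, which was at 2.78 to 3.90 FPKM in WGFT17, 1.84 to 2.97 FPKM in JHU083 and 1.30 to 2.12 FPKM in Control, and whether the counting used strand is not stated. Cd300ld had 41.2, 40.3 and 40.8 FPKM in WGFT17 libraries, 68.3, 73.7 and 60.4 FPKM in JHU083 libraries and 47.8, 39.2 and 49.2 FPKM in Control libraries. WGFT17 lay within the range of Control and JHU083 above both. Cd300ld, which pairs with FcRγ, was 1.20-fold lower (log2 change -0.27 ± 0.090 SE, adjusted p = 0.0259) in WGFT17 against Control, a call lost without any 1 of the WGFT17 libraries or without Control replicate 1 or 3 (adjusted p = 0.0574 to 0.111) and with no minimum or limma (0.0813 to 0.199). It was 1.39-fold higher (log2 change 0.48 ± 0.090 SE, adjusted p = 0.00496) in JHU083 against Control. Cd300c2 had 139.7, 146 and 136 FPKM in WGFT17 libraries, 141, 150.5 and 139 FPKM in JHU083 libraries and 135, 134 and 142 FPKM in Control libraries. Cd300c2, the gene of a DAP12-coupled receptor, overlapped between all groups and passed in no comparison (log2 change -0.070, 95% interval -0.18 to 0.043, adjusted p = 0.263 in WGFT17 against Control and log2 change -0.025, 95% interval -0.14 to 0.089, adjusted p = 0.751 in JHU083 against Control).

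A further pattern was that of 4 neighbouring copies, Cd300ld2 to Cd300ld5, on the minus strand of chromosome 11 between 115010335 and 115048409 (GRCm38). Of the 100-base windows of the longest transcript, 100% of Cd300ld5, 86.7% of Cd300ld4, 80.9% of Cd300ld3 and 16.2% of Cd300ld2 also occur in another of the copies, so the authors' counting could split reads among them and their single values are uncertain. The copies are alike in front of the gene as well. The windows of Cd300ld4 and Cd300ld5 are identical over 300 bases, and the window of Cd300ld3 differs from each at 15 bases (95.0% identity). The windows of Cd300ld3 (chr11:115048281-115048580, minus strand) and Cd300ld4 (chr11:115026884-115027183, minus strand), from RefSeq on GRCm38.p6, show these differences in capitals.
Cd300ld3: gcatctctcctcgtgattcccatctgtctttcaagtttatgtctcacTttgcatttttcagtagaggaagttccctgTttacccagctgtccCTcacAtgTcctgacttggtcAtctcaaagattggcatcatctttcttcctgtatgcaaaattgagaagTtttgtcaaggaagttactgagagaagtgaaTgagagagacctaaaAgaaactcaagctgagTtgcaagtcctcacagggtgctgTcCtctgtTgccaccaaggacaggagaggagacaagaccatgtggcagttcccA
Cd300ld4: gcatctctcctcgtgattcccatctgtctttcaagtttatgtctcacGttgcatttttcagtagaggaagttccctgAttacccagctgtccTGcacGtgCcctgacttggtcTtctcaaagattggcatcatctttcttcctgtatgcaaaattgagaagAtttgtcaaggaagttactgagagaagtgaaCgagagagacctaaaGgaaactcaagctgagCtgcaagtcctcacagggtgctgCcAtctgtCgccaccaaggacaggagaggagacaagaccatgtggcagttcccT
Each of the 3 windows holds a PU.1 match at -187 from the start, and the window of Cd300ld, a more distant neighbour, is 64.8% to 65.7% identical to them.

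Cd300ld3 had 108, 100.2 and 107 FPKM in WGFT17 libraries, 204, 214 and 143 FPKM in JHU083 libraries and 110.2, 111 and 115 FPKM in Control libraries. JHU083 was highest, with replicate 3 well under its other libraries, then Control, then WGFT17, without overlap. Cd300ld3 did not pass in WGFT17 against Control (log2 change -0.20, 95% interval -0.46 to 0.062, adjusted p = 0.173), but it passed as lower without JHU083 replicate 3 (adjusted p = 0.00223). Cd300ld3 was 1.56-fold higher (log2 change 0.64 ± 0.12 SE, adjusted p = 0.00397) in JHU083 against Control, with log2 change 0.80, adjusted p = 7.11e-06 without JHU083 replicate 3. Cd300ld5 had 57.7, 52.5 and 56.0 FPKM in WGFT17 libraries, 114, 122 and 92.1 FPKM in JHU083 libraries and 72.5, 70.7 and 73.6 FPKM in Control libraries. The same order of groups held, without overlap. Cd300ld5 was 1.41-fold lower (log2 change -0.49 ± 0.088 SE, adjusted p = 0.000626) in WGFT17 against Control and 1.42-fold higher (log2 change 0.50 ± 0.087 SE, adjusted p = 0.00318) in JHU083 against Control. Cd300ld4 had 26.8, 33.7 and 25.0 FPKM in WGFT17 libraries, 52.3, 55.0 and 45.3 FPKM in JHU083 libraries and 36.6, 36.0 and 36.5 FPKM in Control libraries. Again the groups kept apart in that order. Cd300ld4 was 1.38-fold lower (log2 change -0.46 ± 0.11 SE, adjusted p = 0.00398) in WGFT17 against Control and 1.31-fold higher (log2 change 0.39 ± 0.11 SE, adjusted p = 0.0263) in JHU083 against Control, the second call being lost without JHU083 replicate 1 or 2 or any 1 of the Control libraries (adjusted p = 0.0615 to 0.0857) and with no minimum (0.0684). Cd300ld2 had 1.93, 2.15 and 2.00 FPKM in WGFT17 libraries, 4.33, 4.11 and 4.42 FPKM in JHU083 libraries and 4.51, 4.01 and 3.27 FPKM in Control libraries. The least abundant copy was lowest in WGFT17, and the other groups overlapped. It was 2.08-fold lower (log2 change -1.06 ± 0.17 SE, adjusted p = 0.000303) in WGFT17 against Control and did not pass in JHU083 against Control (log2 change 0.036, 95% interval -0.33 to 0.40, adjusted p = 0.895).

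Because reads may be split among the copies, their counts were also summed to 1 feature. The summed FPKM was 194.7, 188.5 and 190.4 in WGFT17 libraries, 374.0, 395.7 and 284.3 in JHU083 libraries and 223.9, 221.4 and 228.0 in Control libraries. JHU083 was highest and WGFT17 lowest, without overlap. The summed feature was lower in WGFT17 than in Control by edgeR (log2 change -0.34, adjusted p = 0.00985) and higher in JHU083 than in Control (log2 change 0.55, adjusted p = 0.00309, and 0.68, adjusted p = 8.41e-06, without JHU083 replicate 3). Against JHU083, WGFT17 was lower by 0.89 on the log2 scale (log2 change -0.89, adjusted p = 1.64e-05).

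Set side by side with each other, the drugs differed at 19 of the 27 genes, while 44.7% of all genes tested were called. The 6 higher in WGFT17 were 22.2% of the receptor genes, close to the 20.4% of all genes. The 13 lower were 48.1%, against 24.4% of all genes. In WGFT17 against JHU083, Clec4e, Siglec1, Cd300lf, Cd300a, Clec4n and Clec4d were higher, with log2 changes of 2.00, 1.06, 1.04, 0.72, 0.63 and 0.51. The 13 lower genes were led by Clec11a (-3.37) and Siglecf (-2.66), followed by Clec10a (-1.12), Cd300ld2 (-1.10) and Cd300ld5 (-0.995). Clec12a (-0.87), Cd300ld4 (-0.85), Cd300ld3 (-0.84), Siglece (-0.78), Clec4a3 (-0.76), Cd300ld (-0.74), Cd33 (-0.49) and Clec4a1 (-0.31) completed them. Their adjusted p-values are from edgeR's quasi-likelihood test over all genes. Each of the 19 calls was kept in every setting that tested the gene, replicates left out included. With a minimum of 5 FPKM, Clec4e, Clec10a, Cd300ld2, Siglece and Siglecf were not tested, and 5 higher and 9 lower genes were called. The 8 genes that did not pass were Clec7a (log2 change -0.22, 95% interval -0.50 to 0.056, adjusted p = 0.18), Clec2d (log2 change -0.26, 95% interval -0.67 to 0.14, adjusted p = 0.271), Clec5a (log2 change -0.19, 95% interval -0.42 to 0.048, adjusted p = 0.181), Clec16a (log2 change 0.053, 95% interval -0.12 to 0.22, adjusted p = 0.61), Cd300c2 (log2 change -0.045, 95% interval -0.16 to 0.069, adjusted p = 0.511), Cd22 (log2 change -0.18, 95% interval -0.42 to 0.062, adjusted p = 0.21), and, as given above, Clec4a2 and Cd300lb. For these the intervals still allow differences, so a lack of difference between the drugs is not shown. Clec12a, Cd300ld5, Cd300ld4 and Cd300ld were each called lower in WGFT17 and higher in JHU083 against the same Control libraries. How many of all genes were called in opposite directions in this way is not given here. The WGFT17 call of Cd300ld and the JHU083 calls of Cd300ld4 and Clec12a were lost in some settings, as given above. Cd300ld4 and Cd300ld5 also share sequence, so their calls may not be separate.

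Grouped by the signal that the receptors are known to give, the activating receptors among the tested genes were Clec4d, Clec4e, Clec4n, Clec7a, Clec5a, Cd300lb, Cd300ld and Cd300c2. Of these 8, 4 rose and 1 fell in WGFT17 against Control, with a median log2 change of 0.25. Of the 7 inhibitory receptors (Clec4a2, Clec12a, Cd22, Siglece, Siglecf, Cd300a and Cd300lf), 2 rose and 4 fell, with a median of -0.44. Of the other 12 genes, 2 rose and 9 fell. In that comparison 50% of activating genes rose and 12.5% fell, 28.6% and 57.1% of inhibitory genes, and 16.7% and 75% of other genes. Among all genes tested, 28.0% rose and 30.0% fell. In JHU083 against Control, 2 activating, 1 inhibitory and 3 other genes rose, and 0 activating, 1 inhibitory and 1 other gene fell by edgeR. Of the activating genes, 2 were lower at an unadjusted p under 0.05, 1 by DESeq2 and 0 by limma. Without JHU083 replicate 3 those counts were 2, 2 and 5 genes that rose and 1, 1 and 2 that fell. Among all genes tested, 11.5% rose and 12.5% fell in JHU083 against Control, and 15.7% and 15.9% without that library. The 3 other genes that rose with all libraries were Cd300ld3, Cd300ld5 and Cd300ld4. These copies share sequence, so their calls may not be separate. Summed over all members, activating receptors were at 677.9 FPKM in WGFT17, 608.6 FPKM in JHU083 and 519.6 FPKM in Control, and inhibitory receptors at 109.6 FPKM in WGFT17, 99.6 FPKM in JHU083 and 88.4 FPKM in Control. These sums rest on a few abundant genes. Cd300a averaged 61.3 FPKM in WGFT17, 36.9 FPKM in JHU083 and 30.6 FPKM in Control, and Clec4d 257.9, 179.8 and 157.8 FPKM in that order. The inhibitory sum was thus highest in WGFT17 although 4 of the 7 tested inhibitory genes fell there against Control. The difference between the kinds was not tested.

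The 22 genes under the limit for testing were measured at low levels only. Among them Siglecg, an inhibitory Siglec of B cells, was at 0.29 to 0.36 FPKM in WGFT17, 0.76 to 1.07 FPKM in JHU083 and 1.21 to 1.78 FPKM in Control. Its groups did not overlap. The 8 B cell markers summed to 1.97 to 2.74 FPKM in WGFT17, 4.45 to 4.82 FPKM in JHU083 and 4.99 to 6.18 FPKM in Control, in the same order of groups, and their part was not tested. Clec2i was at 0.38 to 0.47 FPKM in WGFT17, 0.69 to 1.10 FPKM in JHU083 and 0.48 to 0.79 FPKM in Control. Cd300e was at 0.28 to 0.46 FPKM in WGFT17, 0.47 to 0.67 FPKM in JHU083 and 0.29 to 0.43 FPKM in Control. Cd300lg was at 0 to 0.06 FPKM in WGFT17, 0.34 to 0.52 FPKM in JHU083 and 0.46 to 0.61 FPKM in Control, so WGFT17 was below the other groups. With Clec4b1, given above, these were the 5 untested genes whose mean reached 0.5 FPKM in a group. The other 14 C-type lectins had group means of at most 0.49 FPKM, the other CD300 gene of at most 0.133 FPKM and the other 2 Siglecs of at most 0.15 FPKM.

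Genes that carry the receptors' signals were described by 4 lists. Of the 16 genes of the ITAM adaptor and SYK-CARD9 list, 5 rose and 6 fell in WGFT17 against Control, 0 rose and 2 fell in JHU083 against Control, and 3 were higher and 2 lower in WGFT17 against JHU083. The 0 is by edgeR: 0 had an unadjusted p under 0.05, DESeq2 called 0 and limma called 3, and without JHU083 replicate 3 the list had 3 genes that rose and 3 that fell in JHU083. The median log2 changes of the list were -0.0054, -0.019 and -0.013 in the same order of comparisons, beside the medians of all genes given above. As shares, 31.2% of the list rose and 37.5% fell in WGFT17 against Control, where 28.0% and 30.0% of all genes did. In JHU083 against Control the shares were 0% and 12.5%, against 11.5% and 12.5% of all genes. In WGFT17 against JHU083 they were 18.8% and 12.5%, against 20.4% and 24.4%. The smallest adjusted p-values in WGFT17 against Control were those of Bcl10, the partner of CARD9 (log2 change -0.35 ± 0.060, adjusted p = 0.000489), the kinase Syk (log2 change 0.35 ± 0.073, adjusted p = 0.00182) and Nfatc1 (log2 change -0.29 ± 0.065, adjusted p = 0.00246). The adaptor gene Fcer1g fell with both drugs, to 302.5 to 337.1 FPKM in WGFT17 and 265.6 to 373.7 FPKM in JHU083, against 395.2 to 411.5 FPKM in Control (log2 change -0.43 ± 0.11, adjusted p = 0.00465 for WGFT17 and log2 change -0.47 ± 0.11, adjusted p = 0.0101 for JHU083). Bcl10 was also lower in JHU083 than in Control (log2 change -0.19 ± 0.060, adjusted p = 0.0404). Against JHU083, WGFT17 had lower Nfkb1 (log2 change -0.26 ± 0.045, adjusted p = 0.000615), higher Plcg2 (log2 change 0.24 ± 0.070, adjusted p = 0.0155) and lower Nfatc1 (log2 change -0.20 ± 0.065, adjusted p = 0.0255).

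Of the 13 genes of ITIM phosphatases and SRC kinases, 1 rose and 7 fell in WGFT17 against Control, and 0 were higher and 7 lower in WGFT17 against JHU083 (1 higher at an unadjusted p under 0.05, 1 by DESeq2 and 0 by limma). None passed in JHU083 against Control by edgeR: 1 had an unadjusted p under 0.05, DESeq2 called 0 and limma called 3. The median log2 changes were -0.15 in WGFT17 against Control, 0.039 in JHU083 against Control and -0.17 in WGFT17 against JHU083. As shares, 7.69% rose and 53.8% fell in WGFT17 against Control, where 28.0% and 30.0% of all genes did. In WGFT17 against JHU083 the shares were 0% and 53.8%, against 20.4% and 24.4% of all genes. In JHU083 against Control 11.5% of all genes rose and 12.5% fell. Socs3, a feedback inhibitor of cytokine signalling, fell most clearly in WGFT17 (log2 change -1.11 ± 0.10, adjusted p = 3.13e-06 against Control and log2 change -1.16 ± 0.10, adjusted p = 2.92e-06 against JHU083). The kinase genes Src (log2 change -0.62 ± 0.11, adjusted p = 0.000555) and Fgr (log2 change -0.76 ± 0.16, adjusted p = 0.00211) were lower in WGFT17 than in Control. Lyn (log2 change -0.26 ± 0.046, adjusted p = 0.000771) and the SHP-1 gene Ptpn6 (log2 change -0.30 ± 0.061, adjusted p = 0.00213) were lower in WGFT17 than in JHU083.

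The sialic acids that Siglecs bind are made, attached and removed by the enzymes of a further list, with 17 genes tested. In WGFT17 against Control 5 rose and 5 fell, in JHU083 against Control 3 rose and 2 fell, and in WGFT17 against JHU083 3 were higher and 4 lower. Without JHU083 replicate 3, 2 rose and 4 fell in JHU083 against Control, and 5 were higher and 5 lower in WGFT17 against JHU083. Medians were -0.11, 0.0065 and -0.066 on the log2 scale in the same order of comparisons. With all libraries, 29.4% rose and 29.4% fell in WGFT17 against Control, close to the 28.0% and 30.0% of all genes. The shares in JHU083 against Control were 17.6% and 11.8%, against 11.5% and 12.5% of all genes. Those in WGFT17 against JHU083 were 17.6% and 23.5%, against 20.4% and 24.4%. The sialidase gene Neu1 was higher in WGFT17 (log2 change 0.70 ± 0.045, adjusted p = 1.84e-07 against Control and log2 change 0.65 ± 0.045, adjusted p = 4.17e-07 against JHU083). St6gal1, which attaches the α2,6-linked sialic acid that CD22 prefers, was lower in WGFT17 than in Control (log2 change -0.68 ± 0.047, adjusted p = 3.58e-07) and than in JHU083 (log2 change -0.52 ± 0.047, adjusted p = 4.05e-06). Cmas, which activates sialic acid for transfer, was higher in WGFT17 than in Control (log2 change 0.83 ± 0.082, adjusted p = 6.24e-06) and than in JHU083 (log2 change 0.83 ± 0.082, adjusted p = 8.66e-06). The leading calls in JHU083 against Control were the ganglioside enzyme gene St3gal5 (log2 change 0.41 ± 0.061, adjusted p = 0.00167), the lysosomal sialic acid exporter gene Slc17a5 (log2 change 0.29 ± 0.060, adjusted p = 0.00705) and the synthase gene Nans (log2 change -0.25 ± 0.059, adjusted p = 0.0131).

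Lectins and paired receptors of other families made up the last list, also with 17 genes tested. In WGFT17 against Control 4 rose and 9 fell, in JHU083 against Control 2 rose and 3 fell, and in WGFT17 against JHU083 1 was higher and 7 were lower. Without JHU083 replicate 3, 4 rose and 4 fell in JHU083 against Control. Medians were -0.13, 0.017 and -0.095 on the log2 scale in that order too. With all libraries, 23.5% rose and 52.9% fell in WGFT17 against Control, where 28.0% and 30.0% of all genes did. The shares in JHU083 against Control were 11.8% and 17.6%, against 11.5% and 12.5% of all genes. Those in WGFT17 against JHU083 were 5.88% and 41.2%, against 20.4% and 24.4%. The scavenger lectin gene Colec12 (log2 change -1.47 ± 0.062, adjusted p = 5.9e-09), the galectin-1 gene Lgals1 (log2 change -1.37 ± 0.076, adjusted p = 5.19e-08) and the mannose receptor gene Mrc1 (log2 change -1.03 ± 0.076, adjusted p = 5.75e-07) were lower in WGFT17 than in Control. The same 3 genes led in WGFT17 against JHU083: Colec12 (log2 change -1.59 ± 0.062, adjusted p = 4.49e-09), Mrc1 (log2 change -1.02 ± 0.076, adjusted p = 7.77e-07) and Lgals1 (log2 change -0.80 ± 0.075, adjusted p = 5.42e-06) were lower in WGFT17. With JHU083, against Control, Lgals1 was lower (log2 change -0.57 ± 0.075, adjusted p = 0.00101), the inhibitory receptor gene Lilrb4a higher (log2 change 0.57 ± 0.10, adjusted p = 0.00291) and Ly75, the gene of DEC-205, lower (log2 change -0.47 ± 0.10, adjusted p = 0.00721). Stromal cells also express Colec12 and Lgals1, and the stromal sums given above were lowest in WGFT17. Their part in these changes was not tested.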

How the data were processed

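Polyadenylated RNA was sequenced as dUTP-stranded read pairs of 150 bases, per the labels' protocols. Of tools, HISAT2 2.2.1, StringTie 2.1.6, edgeR, DESeq2 and cutadapt 1.9 appear in the submitters' processing notes, with build mm9, and with neither roles nor order. The deposited coordinates were the same as in GENCODE M21 on GRCm38 for 45 of the 49 receptor genes and for 87.1% of the 28926 matched gene identifiers, so positions are given in GRCm38. The authors deposited FPKM values and whole-number estimated counts for 28998 genes in 9 libraries. Low values of 4 (8030) were more frequent than those of 3 (4287) or 5 (2712), so the deposited values were treated as estimated (expected) counts made by the authors and not as reads. Totals were 56624220 to 69112134, and no column of another sample was present.

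The estimated counts, whole in the file, were tested with edgeR 4.0.16 (R 4.3.3) quasi-likelihood fits with TMM scaling on all 9 libraries for 11798 genes (minimum mean 1 FPKM), with Benjamini-Hochberg adjustment and a threshold of 0.05. The common dispersion was 0.01486. Intervals are 95% intervals from the fit's standard errors. DESeq2 1.42.0 and limma 3.58.1 on log2(FPKM + 1) and log2(FPKM + 0.1), other scalings, other minimums (none, and 5 FPKM), estimated counts divided by 4, a replicate block, fits of only the 2 groups compared and each library left out were alternatives. Shared sequence was measured as 100-base windows of the longest GENCODE transcripts, and promoter windows are RefSeq's for GRCm38.p6, with windows for 23 of the 27 tested genes. Every tested gene is named with its values. Untested genes are named where a group mean reached 0.5 FPKM, and up to 3 called genes a list and comparison by smallest adjusted p. The genes and lists were chosen with earlier results of these data known. Same-numbered replicates did not deviate together (correlations of -0.0338 to 0.161), so the numbers were not used as pairs.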

Additional observations from a re-analysis of the deposited data

How the results depend on the processing

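Receptor calls that kept their direction and passed each time were counted over the alternatives that tested the gene. They were 5 of the 8 in JHU083 against Control, 19 of the 22 in WGFT17 against Control and 19 of the 19 in WGFT17 against JHU083. With a minimum of 5 FPKM, genes with lower means were not tested. The count of receptor genes lower in JHU083 than in Control (2) was 1 with no minimum, with limma on log2(FPKM + 1) or log2(FPKM + 0.1) and with only the 2 groups compared, and 1 to 4 with a library left out. The count of those higher (6) was 10 with both limma fits. Leaving out 1 library moved the genes called in JHU083 against Control (2831) to between 1534 (without Control replicate 2) and 3731 (without JHU083 replicate 3), and 1568 were called without Control replicate 3. At a mean FPKM of at least 5, where fewer genes are tested, 4151 genes were called in WGFT17 against Control and 3305 in WGFT17 against JHU083. The log2 ratio of the Siglec sums was 0.51 in WGFT17 against Control (0.45 with all members) and 0.42 in WGFT17 against JHU083 (0.39) when only tested genes were summed.

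Values that changed sign were all of genes that did not pass. In JHU083 against Control, with library totals alone, Cd300c2 was 0.0096 and Cd22 0.0043. With limma on log2(FPKM + 1) and log2(FPKM + 0.1), Cd300c2 was 0.068 and 0.069, Cd300lf 0.037 and 0.045 and Cd22 0.060 and 0.072. With 1 library left out in turn, Cd300c2 ranged from -0.062 to 0.0064, Cd300lf from -0.16 to 0.051, Cd22 from -0.14 to 0.085, Clec10a from -0.031 to 0.15 and Cd300ld2 from -0.075 to 0.15. In WGFT17 against Control, limma gave Clec5a 0.048 and 0.055 and Cd300c2 0.0383 and 0.0385, and left-out libraries gave Clec7a -0.0052 to 0.26 and Clec5a -0.13 to 0.0083. In WGFT17 against JHU083, left-out libraries gave Clec2d -0.42 to 0.035 and Cd300lb -0.11 to 0.017. The cause was not tested.

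With the replicate number as a block (a replicate block), 6530 genes were called in WGFT17 against Control, 2330 in JHU083 against Control and 4907 in WGFT17 against JHU083. The receptor counts of 8 and 14, 6 and 2, and 6 and 13 did not change under the block. The sum of the Cd300ld copies was an alternative chosen after the data were seen. Depth limits the genes with few estimated counts: among the tested ones Siglecf had 64 to 455, Cd300ld2 129 to 285, Clec11a 147 to 1849 and Siglece 164 to 433 per library. The fold changes of Clec11a and Siglecf with WGFT17 moved by over 1.5 times with limma on log2(FPKM + 1), as given beside them, since a pseudocount of 1 compresses low values.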
